A study of Oryza sativa with 6 samples.

Results

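Pectin modifying genes of rice (Oryza sativa) are described here in panicles kept in the cold. The members are the 175 genes, of 39367 in the deposited table, whose name or description holds pectinesterase, pectin, polygalacturonase, pectate lyase or glycoside hydrolase family 28. Of these, 51 were put down as pectin methylesterases (pectinesterases), 42 as proteins with a pectinesterase inhibitor domain, 26 as polygalacturonases, 9 as polygalacturonase inhibitors, 8 as pectate lyases and 9 as pectin acetylesterases. The other 30 matched by a word alone. They comprise 21 genes known only by a pectin lyase fold and 5 genes put down to pectin synthesis by words alone. The rest are 2 non-catalytic polygalacturonase beta subunits and 2 starch genes caught through the word amylopectin.

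Total RNA of panicles was sequenced in 6 libraries, 3 of the wild-type cultivar Nipponbare and 3 of CTB3-cr1, a line whose labels call it a CTB3 knockdown and whose table columns abbreviate it KO. The panicles of both genotypes spent 1 day in a cold regime given as CS-PT, letters that the sources used here do not spell out. Panicles without cold were not analysed here, and as there was a single CTB3 line, CTB3 itself and other traits of that line cannot be told apart. No source used here pairs CTB3 with a gene identifier, so the labels could not be checked against the targeted gene.

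Pectin is the acidic polysaccharide of the primary wall and of the layer that glues plant cells together. It is made in the Golgi in a methylated form, and pectin methylesterases strip the methyl groups in the wall. The bared chains can be stiffened by calcium or cut by polygalacturonases and pectate lyases, while inhibitor proteins hold the esterases and polygalacturonases in check. In anthers these enzymes are known for the release of microspores from the tetrad, for the pollen wall and for pollen tube growth.

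The libraries held 14422565 to 16982031 gene counts. All 11 floral MADS-box genes used to check the tissue had counts, summing to between 1331 and 1794 CPM (a gene's share of the counts of its library, with library sizes scaled by TMM). On the first principal component, which took 38.9% of the variance, Nipponbare replicate 2 lay apart at 80.3, against -54.8 to 17.2 for the other 5 libraries.

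The genotypes overlapped in the summed level of the pectin genes. Of the 95 members that passed the expression filter, edgeR's quasi-likelihood test called 0, against 20 of 25636 genes tested (0.0780%). PECTIN METHYLESTERASE 26 (Os08g0450200) was 5.52-fold lower in CTB3-cr1 and is called in the authors' deposited table, but not in edgeR (adjusted p = 0.417). DESeq2 run on the deposited counts called this 1 member, and limma on FPKM called 0. An unadjusted p under 0.05 was reached by 4 of 95 members, against 5.25% of all genes tested. The log2 ratio below is the log2 fold change of CTB3-cr1 over Nipponbare in edgeR's fit, given with its SE. Its median was -0.05 over the 95 tested members, 40 of them above and 55 below 0, and 0.00 over all genes tested. For 79 members the fitted log2 fold change lay within 0.5 of no difference. The median SE of the members was 0.26, and even a log2 ratio of -2.46 ± 0.51 (SE) did not pass the adjusted threshold.

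**Figure D1:**
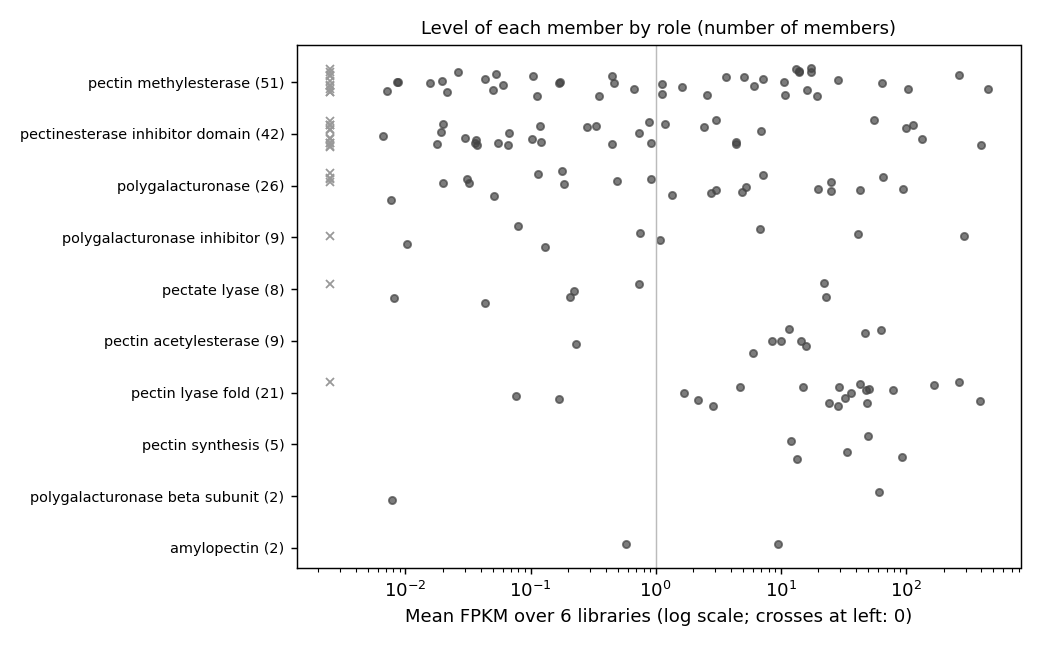
Mean FPKM over the 6 libraries (log axis) of each of the 175 members, one point per member, in rows by role with the number of members in brackets; crosses at the left are members at 0. Each of the large enzyme families spreads over orders of magnitude, and 91 members lie at or under 1 FPKM, the grey line.

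Most members were weakly transcribed in these panicles. In FPKM, which scales fragments by gene length and library size, 55 members had a mean over 10 over the 6 libraries, 29 lay between 1 and 10, and 91 at or under 1. No count was found for 27 members. Under sampling noise alone, this allows up to 0.0315 CPM (3 counts) over the 95161948 counts of the 6 libraries. Replicates differed by more than such noise, so the bound is only a rough guide. A further 36 members had 1 to 9 counts in all. The remaining 17 untested members had 10 to 47 counts. A few genes carried the signal: the 5 most abundant members held 41.7% and the 10 most abundant 59.9% of the summed FPKM of all members. The first of them, Os04g0553650, owes its FPKM to a deposited length of 225 bases. All FPKM shares and sums that include it lean on that length.

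**Figure D2:**
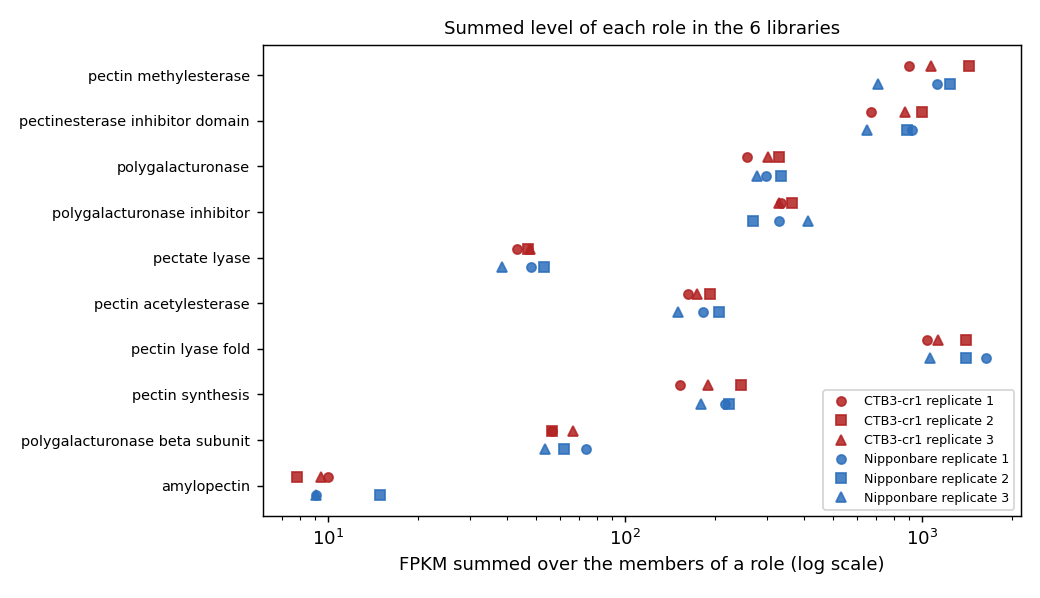
FPKM summed over the members of each role (log axis), one point per library; red is CTB3-cr1, blue is Nipponbare, and the symbol gives the replicate. The genotypes overlap in every role, and CTB3-cr1 replicate 1 and Nipponbare replicate 3 are often the lowest.

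The summed level varied more within genotypes than between them. All members together came to 3620, 5072 and 4191 FPKM in CTB3-cr1 replicates 1, 2 and 3 and to 4831, 4685 and 3539 FPKM in Nipponbare replicates 1, 2 and 3. The group means were 4294 ± 731 and 4351 ± 708 FPKM (SD, n = 3), a ratio of 0.987. Pectin methylesterases took 20.1% to 28.4% of this sum in a library, inhibitor domain proteins 18.4% to 20.8%, genes with a pectin lyase fold 27.0% to 33.9% and polygalacturonases 6.14% to 7.86%. Polygalacturonase inhibitors ranged from 5.71% in Nipponbare replicate 2 to 11.7% in Nipponbare replicate 3. The libraries also differed in how many members peaked there. Of the 95 tested members 38 (40.0%) were highest in Nipponbare replicate 2, against 22.0% of all genes tested. Their lowest value fell in Nipponbare replicate 3 for 35.8% and in CTB3-cr1 replicate 1 for 31.6%, against 20.3% and 18.9% of all genes.

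**Figure D3:**
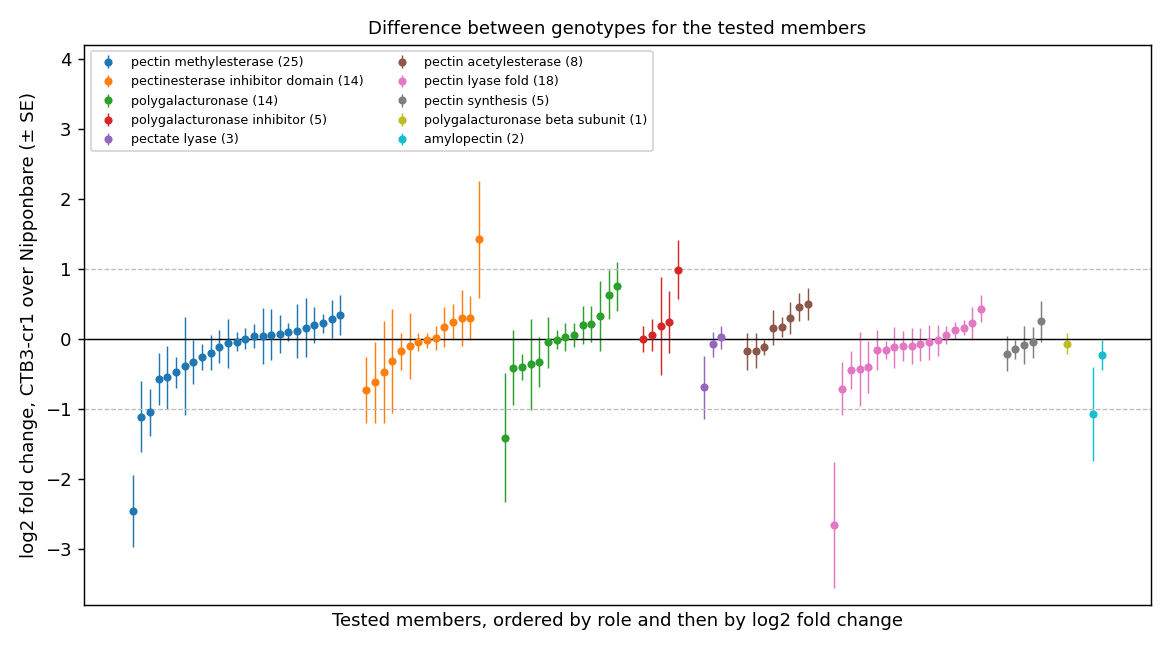
log2 fold change of CTB3-cr1 over Nipponbare with its SE for the 95 tested members, coloured by role and ordered within each role; dashed lines mark a 2-fold difference. Most members lie near 0, and the lowest points are PECTIN METHYLESTERASE 26 at -2.46 and Os06g0611400 at -2.66.

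Pectin methylesterases remove methyl groups from pectin in the wall. Of their 51 genes 25 were tested, with 11 log2 ratios above and 14 below 0, a median of -0.04 and 0 calls in edgeR. An unadjusted p under 0.05 was found for 2 of them. Summed over the class, CTB3-cr1 had 1137 ± 274 FPKM and Nipponbare 1021 ± 276 FPKM (SD, n = 3). Second in level was PECTIN METHYLESTERASE 15 (Os04g0553500), at 233, 392 and 270 FPKM in CTB3-cr1 and 281, 270 and 153 FPKM in Nipponbare. These ranges overlapped, and its log2 ratio was 0.34 ± 0.28 (SE). Directly beside it on chromosome 4, with a gap of 177 bases on the same strand, Os04g0553650 was the most abundant, with a mean of 450 FPKM. That value, and with it part of the class sums, rests on a deposited length of 225 bases. In counts over the 6 libraries it had 9714, against 30105 for PECTIN METHYLESTERASE 15. PECTIN METHYLESTERASE 19 (Os06g0193200) had between 55.1 and 133 FPKM and PECTIN METHYLESTERASE 20 (Os07g0607400) between 46.8 and 75.9 FPKM. Their log2 ratios were 0.11 ± 0.39 (SE) and -0.26 ± 0.19 (SE).

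PECTIN METHYLESTERASE 26 lies on chromosome 8 from 21981611 to 21984054. It had 7.85, 14.8 and 11.6 CPM in CTB3-cr1 replicates 1, 2 and 3 and 37.9, 117 and 34.7 CPM in Nipponbare replicates 1, 2 and 3. All Nipponbare libraries were above all CTB3-cr1 libraries, and Nipponbare replicate 2 was far above the rest. The means were 11.4 ± 3.49 and 63.3 ± 46.7 CPM (SD, n = 3), and the log2 ratio was -2.46 ± 0.51 (SE). Its unadjusted p was 0.00172 in edgeR. Without Nipponbare replicate 2 the log2 ratio was -1.67 (edgeR adjusted p = 0.239), and it stayed below 0 in all 12 alternatives. The adjusted p lay between 0.171 and 1.00 in the edgeR and limma alternatives and was 4.10e-05 in DESeq2. In the authors' deposited table the adjusted p is 4.16e-05, which makes it the 1 member called there among the 135 that have an adjusted p. Of the 32554 genes with an adjusted p there, 0.409% are lower at this threshold.

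PECTIN METHYLESTERASE 26 has a close neighbour with overlapping genotypes. PECTIN METHYLESTERASE 25 (Os08g0450100) ends 54 bases from PECTIN METHYLESTERASE 26 on the opposite strand, the tail ends facing each other. It stood at 7.92, 13.5 and 12.1 CPM in CTB3-cr1 and 15.0, 13.6 and 9.93 CPM in Nipponbare, with overlapping ranges and a log2 ratio of -0.20 ± 0.25 (SE). The annotated genes do not overlap. Since no source used here says whether counting was by strand, reads running past the facing end of one gene into the other cannot be told apart.

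Levels of cell type markers are given beside these values. The tapetum is the layer of the anther that nourishes the pollen. Its 8 marker genes, some of them also known for the pollen wall, all had counts and summed to 910 to 1304 CPM in CTB3-cr1 and 2061 to 3708 CPM in Nipponbare, with the peak in Nipponbare replicate 2. Since 5 of the 8 were picked because earlier results of these data had them lower, neither their direction nor the next counts are evidence. For 6 of the 8, against 5.36% of all genes tested, CTB3-cr1 lay entirely below Nipponbare, and 1 of the 8 had a log2 ratio above 0. In edgeR 0 were called and 6 had an unadjusted p under 0.05. In 25 genes picked by the word pollen in the name, or pollen allergen in the description, 18 had counts and the sum was 451 to 742 CPM in CTB3-cr1 and 501 to 965 CPM in Nipponbare. The 7 at 0 in every library were 4 of the Lol p2 family of pollen allergens, Pollen Specific 1, a pollen-specific calmodulin-binding protein and a Phl p 11-like allergen, while the sum was led by MALE STERILITY 2, known for its part in the pollen wall. The summed level of 14 green tissue genes, picked by the words chlorophyll a/b binding, was also highest in Nipponbare replicate 2, at 3572 CPM against 1633 to 2068 CPM in the other libraries. Of these genes 4 were at 0, among them HEADING DATE 7, which is a regulator that the words caught. The part of these cell types in the pectin genes' values was not tested. In bulk panicles fewer cells of a type and less RNA per cell cannot be told apart.

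**Figure D4:**
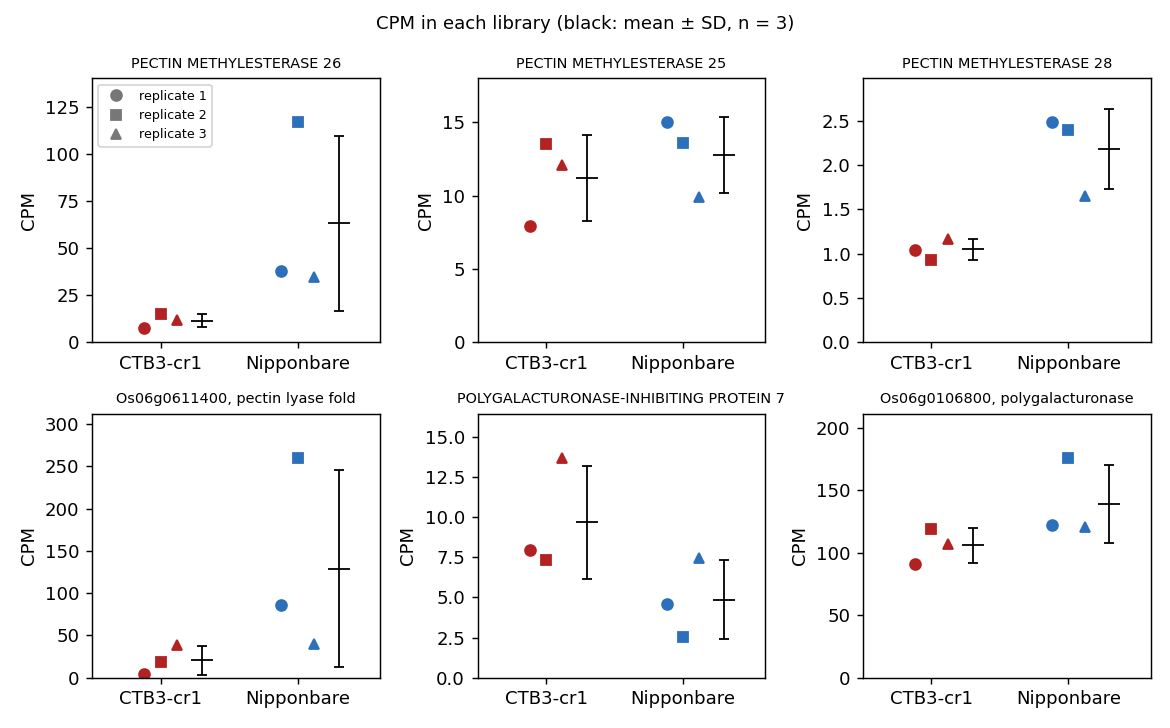
CPM in each library of 6 pectin genes, with symbols for the replicates and the mean ± SD (n = 3) in black; axes start at 0 and differ between panels. PECTIN METHYLESTERASE 26, PECTIN METHYLESTERASE 28, Os06g0611400 and Os06g0106800 are lower in every CTB3-cr1 library than in any Nipponbare library, while PECTIN METHYLESTERASE 25 and POLYGALACTURONASE-INHIBITING PROTEIN 7 overlap.

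PECTIN METHYLESTERASE 28 (Os09g0571100) was also below Nipponbare in every CTB3-cr1 library, at a low level. It had 1.04, 0.931 and 1.17 CPM in CTB3-cr1 and 2.48, 2.39 and 1.65 CPM in Nipponbare, a log2 ratio of -1.05 ± 0.33 (SE) that was not called (edgeR adjusted p = 0.773). Altogether 6 tested members had CTB3-cr1 values entirely below Nipponbare, against 5.36% of all genes tested, and 1 entirely above, against 5.11%. The 6 include PECTIN METHYLESTERASE 8 (Os02g0288100), at 0.779 to 1.18 CPM in CTB3-cr1 and 1.18 to 1.88 CPM in Nipponbare, the nearest libraries being equal after rounding. Past 2-fold either way lay 7 of the 95, against 4.56% of all genes. Among these was PECTIN METHYLESTERASE 2 (Os01g0311800), with overlapping genotypes, a peak of 21.4 CPM in Nipponbare replicate 2 and a log2 ratio of -1.11 ± 0.51 (SE). Without that library it was -0.46, no longer past 2-fold. PECTIN METHYLESTERASE 24 (Os08g0220400) overlapped between genotypes and had a log2 ratio of -0.48 ± 0.22 (SE).

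Proteins with a pectinesterase inhibitor domain bind pectin methylesterases or invertases, and the domain alone does not say which. Of the 42 genes 14 were tested, 6 above and 8 below 0, and none was called in edgeR, with 0 at an unadjusted p under 0.05. The most abundant, Os06g0711800, had overlapping genotypes, at 341, 455 and 412 FPKM in CTB3-cr1 and 435, 428 and 331 FPKM in Nipponbare. Its log2 ratio was 0.01 ± 0.17 (SE). Neighbours on chromosome 12 separated by 673 bases, Os12g0599700 and Os12g0599800, had means of 135 and 113 FPKM and log2 ratios of 0.17 ± 0.28 (SE) and 0.30 ± 0.31 (SE). Os04g0106000 had 72.0 to 140 FPKM and a log2 ratio of -0.18 ± 0.26 (SE).

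Inhibitor domain genes with few counts had wide estimates. Os05g0360900 had 0.779, 1.49 and 0.877 CPM in CTB3-cr1 and 0.955, 0.145 and 0.0591 CPM in Nipponbare, a log2 ratio of 1.42 ± 0.84 (SE). Nipponbare replicate 1 lay within the CTB3-cr1 range, and the log2 ratio was 3.31 without it. Leaving out Nipponbare replicate 3 gave 0.91. PMEI8 (Os02g0537000), a pectin methylesterase inhibitor, had -0.62 ± 0.58 (SE) and Os03g0639400 had -0.73 ± 0.47 (SE) as log2 ratios.

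Polygalacturonases, of glycoside hydrolase family 28, cut demethylated pectin. They were tested for 14 of 26 genes, 7 above and 7 below 0, with a median of 0.00 and 0 calls in edgeR, and 0 at an unadjusted p under 0.05. Their sum was 296 ± 36.0 FPKM in CTB3-cr1 and 303 ± 28.9 FPKM in Nipponbare (SD, n = 3). Os01g0618900, the most abundant, had 83.0, 100 and 99.6 FPKM in CTB3-cr1 and 85.5, 106 and 92.6 FPKM in Nipponbare, a log2 ratio of -0.01 ± 0.14 (SE). Os06g0106800 had 90.8, 119 and 107 CPM in CTB3-cr1 and 122, 176 and 121 CPM in Nipponbare. Its genotypes did not overlap but came close, and its log2 ratio of -0.40 ± 0.19 (SE) was not called (edgeR adjusted p = 0.958).

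Os03g0216800, described as similar to polygalacturonase B, had the highest log2 ratio of the class. It had 32.8, 40.4 and 36.6 CPM in CTB3-cr1 and 35.5, 12.3 and 17.6 CPM in Nipponbare, where replicate 1 lay within the CTB3-cr1 range. The log2 ratio was 0.75 ± 0.35 (SE), with an edgeR adjusted p of 0.967. Os07g0207800, similar to an abscission zone polygalacturonase of Arabidopsis, ran from 0.236 CPM in Nipponbare replicate 3 to 3.69 CPM in Nipponbare replicate 1. Its log2 ratio of -1.41 ± 0.92 (SE) came with this wide spread between replicates, and was -2.26 when CTB3-cr1 replicate 2 was left out. Leaving out Nipponbare replicate 1 gave -0.86. Os07g0245200, Os12g0554800 and Os01g0637500 had log2 ratios of 0.20 ± 0.27 (SE), 0.02 ± 0.20 (SE) and 0.63 ± 0.35 (SE).

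Polygalacturonase inhibitors are leucine-rich repeat proteins of the wall that block polygalacturonases of fungi. Of the 9 genes 5 were tested, 4 above 0, with a median of 0.19, and edgeR called 0, with 1 at an unadjusted p under 0.05. The leading gene was FLORAL ORGAN REGULATOR 1 (Os07g0568700), a family member whose description gives it a role in floral organ number. It had 270, 323 and 274 FPKM in CTB3-cr1 and 284, 229 and 353 FPKM in Nipponbare. The log2 ratio was 0.00 ± 0.19 (SE). POLYGALACTURONASE-INHIBITING PROTEIN 7 (Os09g0491612) had 7.98, 7.32 and 13.7 CPM in CTB3-cr1 and 4.58, 2.53 and 7.44 CPM in Nipponbare. Nipponbare replicate 3 fell within the CTB3-cr1 range, and the log2 ratio was 0.99 ± 0.42 (SE), with an edgeR adjusted p of 0.940. With single libraries left out it ran from 0.66 to 1.45. POLYGALACTURONASE-INHIBITING PROTEIN 6 (Os08g0505900) had a mean of 41.4 FPKM and a log2 ratio of 0.06 ± 0.23 (SE). Inhibiting proteins 2 and 4 (Os05g0104150 and Os05g0104700), on chromosome 5, had means from 1.05 to 1.35 CPM, with log2 ratios of 0.19 ± 0.70 (SE) and 0.24 ± 0.44 (SE). The first was 1.16 without Nipponbare replicate 1 and -0.28 without Nipponbare replicate 2.

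Pectate lyases cleave demethylated pectin by elimination. In both of their clearly transcribed genes the genotypes overlapped. The gene dwarf and early-senescence leaf1 (Os10g0457200), tied by its description to cell division and leaf senescence, had 24.1, 20.2 and 25.0 FPKM in CTB3-cr1 and 25.4, 24.2 and 18.6 FPKM in Nipponbare. Os01g0546800 had 18.0 to 25.1 FPKM and 19.1 to 27.3 FPKM. Their log2 ratios were 0.02 ± 0.16 (SE) and -0.08 ± 0.18 (SE). The last tested gene, Os02g0214400, is described as a pectate lyase-like protein of pollen development. It had 0.714, 1.55 and 0.877 CPM in CTB3-cr1 and 1.46, 2.39 and 1.24 CPM in Nipponbare, overlapping ranges with a log2 ratio of -0.69 ± 0.45 (SE). Os06g0583900, named after its values were seen, did not pass the expression filter of the main fit. It had 38 counts over the CTB3-cr1 libraries and 5 over Nipponbare. By library these were 10, 6 and 22 in CTB3-cr1 and 1, 2 and 2 in Nipponbare. In the authors' deposited table its log2 fold change is 2.84, with an adjusted p of 0.327.

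Pectin acetylesterases take acetyl groups off pectin, and 8 of the 9 were tested, 5 above and 3 below 0. None was called in edgeR, with 0 at an unadjusted p under 0.05. Os10g0550500 and Os07g0634600 led with means of 63.8 and 47.1 FPKM and log2 ratios of -0.18 ± 0.26 (SE) and -0.17 ± 0.25 (SE). The narrowest estimate was that of Os01g0974500, at 16.4, 15.1 and 14.3 FPKM in CTB3-cr1 and 16.8, 16.4 and 16.4 FPKM in Nipponbare. Its log2 ratio was -0.12 ± 0.11 (SE). The largest was that of Os04g0602500, at 27.1, 18.7 and 27.2 CPM in CTB3-cr1 and 19.2, 12.7 and 19.8 CPM in Nipponbare, or 0.50 ± 0.23 (SE) on the log2 scale (edgeR adjusted p = 0.953). On chromosome 1, Os01g0892600 and a locus without an Os identifier 8129 bases away (38800574 to 38803989), which has a pectin acetylesterase domain, had log2 ratios of 0.30 ± 0.23 (SE) and 0.46 ± 0.20 (SE). Os05g0111900 had 0.17 ± 0.14 (SE).

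The pectin lyase fold is a helical fold that many enzymes acting on pectin share, so these 21 genes carry no more exact function here. Os06g0611400, on chromosome 6 from 24379827 to 24382168, had the largest ratio of highest to lowest CPM among the 95 tested members. It had 3.83, 18.7 and 38.3 CPM in CTB3-cr1 and 86.0, 260 and 40.1 CPM in Nipponbare. The genotypes did not overlap, but CTB3-cr1 replicate 3 and Nipponbare replicate 3 nearly met. The log2 ratio was -2.66 ± 0.90 (SE), with an unadjusted p of 0.0203 and an adjusted p of 0.806 in edgeR, and -1.63 without Nipponbare replicate 2 and -3.49 without CTB3-cr1 replicate 3. Its peak library, Nipponbare replicate 2, was also the highest for 40.0% of the 95 tested members, against 22.0% of all genes tested. The summed tapetum markers, partly picked for being lower in CTB3-cr1 in these data, and green tissue markers peaked there, at 3708 and 3572 CPM. The pollen and floral sums were highest there by less. They were 965 and 1794 CPM, against 873 and 1774 CPM in Nipponbare replicate 1. The part of these cell types in this value was not tested.

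The most abundant genes with this fold overlapped between genotypes. Os01g0201600 had 319 to 425 FPKM in CTB3-cr1 and 330 to 537 FPKM in Nipponbare, Os04g0613200 had 153 to 337 FPKM and 205 to 447 FPKM, and Os05g0542900 had 156 to 193 FPKM and 156 to 172 FPKM. Their log2 ratios were -0.08 ± 0.23 (SE), -0.40 ± 0.37 (SE) and 0.06 ± 0.13 (SE). Os02g0256100 had 0.43 ± 0.19 (SE) with overlapping libraries. Os10g0490100, at 0.779 to 1.34 CPM in CTB3-cr1 and 1.42 to 2.32 CPM in Nipponbare, did not overlap. Os03g0309000 was the 1 tested member entirely higher in CTB3-cr1, at 45.5 to 49.8 CPM against 38.9 to 44.2 CPM, with a log2 ratio of 0.16 ± 0.11 (SE).

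The genes put down to pectin synthesis were placed there by words in their names or descriptions, and what they build was not checked. Within the members, the glucuronyltransferase-like gene Os01g0926600 is also named glycosyltransferase 47A, a name that does not mention pectin. It had 62.3 to 113 FPKM in CTB3-cr1 and 76.4 to 119 FPKM in Nipponbare, a log2 ratio of -0.21 ± 0.25 (SE). Outside the members, words for galacturonosyltransferases, family 8 glycosyltransferases, QUASIMODO or UDP-glucuronate epimerases found 24 further genes, all tested. Of these 9 lay above and 15 below 0, with a median of -0.04 and 0 calls in edgeR, and 1 had an unadjusted p under 0.05. The most abundant, Os02g0498700, similar to QUASIMODO 1 of Arabidopsis, had a log2 ratio of -0.02 ± 0.13 (SE), and Os02g0624400, a family 8 glycosyltransferase gene, had 0.59 ± 0.24 (SE). Both amylopectin matches are starch enzymes. ISOAMYLASE 1 (Os08g0520900) had a log2 ratio of -0.23 ± 0.22 (SE) and ALKALI DEGENERATION (Os06g0229800), a starch synthase, -1.07 ± 0.67 (SE). Without Nipponbare replicate 2 the latter was -0.41.

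Further wall genes beside the pectin members gave no call in edgeR either. Among 13 tested beta-galactosidases, which trim galactan side chains of pectin, 3 lay above and 10 below 0, with a median of -0.08 and 1 at an unadjusted p under 0.05. BETA-GALACTOSIDASE 1 (Os03g0165400) was the most abundant, at -0.11 ± 0.18 (SE) on the log2 scale, and BETA-GALACTOSIDASE 14 (Os10g0340600) had -1.37 ± 0.52 (SE) with an edgeR adjusted p of 0.880. Wall-associated kinases, some of which bind pectin, were tested for 26 of 81 genes, 9 above and 17 below 0, with a median of -0.11 and 2 at an unadjusted p under 0.05. WALL-ASSOCIATED KINASE GENE 1 (Os01g0136400) had -1.24 ± 0.41 (SE) and an edgeR adjusted p of 0.794. In FPKM it had 2.44, 5.43 and 3.37 in CTB3-cr1 and 5.36, 13.6 and 7.52 in Nipponbare, again with the peak in Nipponbare replicate 2. The most abundant entry of that list, Os01g0363900, is named a wall-associated kinase but described as similar to HASTY, and had -0.19 ± 0.12 (SE).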

How the data were processed

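Per the file headers, the authors deposited raw counts of each gene and library, beside FPKM. It also gives the authors' group means as a normalised signal, their log2 fold changes and their p-values, per the file headers. Fastp 0.19.7, HISAT2 and DESeq2 are named in the submitters' processing notes. No source used here gives the build, annotation, read counter, strand setting or handling of reads that match several copies. Members with near-identical copies are therefore uncertain. Coordinates are those of the table.

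A broken entry left 2 of 39369 lines without an identifier (at most 0.000478% of a library's counts), and these were left out. Counts were fitted with edgeR 4.0.16 in R 4.3.3 (filterByExpr, TMM, quasi-likelihood F test, genotype only), calls being at an adjusted p under 0.05 (Benjamini-Hochberg, 25636 genes). SE is the log2 fold change over the square root of F. The FPKM describe levels.

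Alternatives were DESeq2 1.42.0, RLE factors, no filter, a replicate block, leaving out each library in turn, and limma 3.58.1 on log2(FPKM + 1) and log2(FPKM + 0.1). Replicates differed by more than sampling noise, with a chi-square of at least 16.3 per degree of freedom. The labels call them biological replicates without saying how many plants each holds.

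Members and lists were chosen with earlier results of these data known. Named are, per role (the word matches as 1), the 4 tested genes highest in mean FPKM and the 3 with the smallest p, and members called here or by the authors, 42 in all. A further 7 tested members, and Os06g0583900, which did not pass the filter of the main fit, were named after their values were seen. Beta subunits were moved from the polygalacturonases to the word matches after the descriptions were read. Descriptions naming both a catalytic pectinesterase and an inhibitor domain were planned to count as methylesterases. As run, the word inhibitor placed any such genes with the inhibitor domain genes instead. In the other wall lists the most abundant gene and the one with the smallest p are named. No gene matched the list of rhamnogalacturonan lyases.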

Additional observations from a re-analysis of the deposited data

How the results depend on the processing

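DESeq2 called 1 member, PECTIN METHYLESTERASE 26, and 202 genes in all, against 0 members and 20 genes in edgeR. The other 11 alternatives called 0 members. Over the whole table they called 4 genes with the replicate block, 32 on log2(FPKM + 0.1), and 4 to 16 with single libraries left out. The replicate numbers are not shown to pair the libraries, since deviations of same-numbered libraries correlated at -0.27, 0.37 and -0.07. The median over members ranged from -0.163 to 0.048 with single libraries left out, crossing 0.

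Of 588 fold changes of 49 named members under the alternatives, 36 turned sign, in 19 members, all near 0 and none called. Their log2 fold changes with single libraries left out ran from -0.20 to 0.17 for Os01g0201600, -0.20 to 0.08 for Os01g0546800, -0.08 to 0.08 for Os01g0618900, -0.43 to 0.06 for Os04g0106000, -0.28 to 1.16 for Os05g0104150, 0.00 to 0.64 for Os05g0104700, -0.02 to 0.13 for Os05g0542900, -0.17 to 0.41 for Os06g0193200, -0.09 to 0.13 for Os06g0711800 and -0.03 to 0.57 for Os07g0245200. They ran from -0.14 to 0.18 for Os07g0568700, -0.37 to 0.08 for Os07g0634600, -0.36 to 0.01 for Os08g0450100, -0.15 to 0.27 for Os08g0505900, -0.36 to 0.03 for Os08g0520900, -0.09 to 0.11 for Os10g0457200, -0.44 to 0.02 for Os10g0550500, -0.17 to 0.18 for Os12g0554800 and -0.03 to 0.41 for Os12g0599700. Os07g0568700 also had 0.00 without the filter, 0.01 with the replicate block and 0.02 on both FPKM scales. The cause was not tested.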

Other observations

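Some pectin genes lie near one another. Only members that follow one another in order along a chromosome were paired. Of such pairs 29, made of 50 members, lay within 20000 bases, 22 of them of the same role, with no overlap of the genes. Both genes were tested in 7 pairs, 1 gene in 10 pairs and neither in 12. On chromosome 11 a stretch from 4634063 to 4725123 held 9 pectin methylesterase and inhibitor domain genes, all 9 with no count in any library. Os06g0611400, at a mean of 50.3 FPKM, lies 1856 bases from the polygalacturonase gene Os06g0611500, which had no count. The part of reads that match several copies in these zeros was not tested.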
